A study of Mus musculus with 48 samples.

Results

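Among 471102 T cell receptor β clonotypes of CD8+ T cells from tumors and lymph nodes of 4 mice, 5248 were found in every mouse at frequencies within 100-fold of each other, and these are described here as the members. A clonotype was one combination of V segment, J segment and CDR3 amino acid sequence, the CDR3 being the loop of the receptor chain that spans the V-D-J junction. In each mouse the highest share of reads that a clonotype took in any of the 6 CD8 libraries was its mouse value, and a clonotype was a member when it was found in mice 5, 6, 7 and 8 and its highest mouse value was less than 100 times its lowest. Of the other CD8 clonotypes, 414298 were found in 1 mouse, 39603 in 2 mice and 11825 in 3 mice, and 128 were found in all 4 mice but lay past the limit. The members were 1.11% of the CD8 clonotypes and held 4.66% of the CD8 reads. The members were thus chosen by presence in 4 mice and by the mouse values, and those values are given as descriptions below.

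The mice were female C57BL/6 animals (C57BL/6J in the study's methods) aged 8 weeks that carried LLC tumors, a mouse Lewis lung carcinoma cell line, under the skin on both sides of the back until day 13. The labels name no genetic change or drug for any of them. From every mouse, the left and the right tumor were each cut into 2 fragments, and the brachial draining lymph node (dLN) of each side was taken, which gave 16 tumor and 8 dLN libraries of CD8+ cells and as many of CD4+ cells. Tumor libraries came from all CD8+ or CD4+ T cells that lay outside the blood vessels by intravenous staining, whereas dLN libraries came from the CD44hi fraction, the antigen-experienced and memory-like cells. A difference between tumor and dLN therefore cannot be told apart from a difference between these sorting gates.

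A β chain gene is assembled in the thymus by joining 1 each of the V, D and J segments. At both joints the segment ends are trimmed, and terminal deoxynucleotidyl transferase can add bases that no template encodes. Many assemblies with few added bases can give the same amino acid sequence, a property known as convergent recombination, and receptors seen in several individuals are called public. The antigen that a receptor binds is not read by this assay.

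The junctions below belong to the 5 members with the highest mean mouse value and show how much of each CDR3 is copied from the germline. Each is the sequence with the most CD8 reads for its member, written from the codon of the conserved cysteine to that of the final phenylalanine, with the bases between the V part and the J part in capitals.
TRBV20 TRBJ1-2 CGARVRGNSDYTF: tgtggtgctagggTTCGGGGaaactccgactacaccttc
TRBV12-2 TRBJ2-7 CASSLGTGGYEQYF: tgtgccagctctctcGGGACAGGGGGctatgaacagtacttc
TRBV3 TRBJ2-7 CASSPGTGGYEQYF: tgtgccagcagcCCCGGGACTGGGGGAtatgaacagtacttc
TRBV13-2 TRBJ1-1 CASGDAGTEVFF: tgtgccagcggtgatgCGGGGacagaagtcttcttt
TRBV13-2 TRBJ2-3, 15 residues: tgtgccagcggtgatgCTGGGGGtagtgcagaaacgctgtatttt
The D segments lie in GRCm38 (GENCODE M21) on the plus strand of chromosome 6, with TRBD1 at chr6:41533201-41533212 and TRBD2 at chr6:41542163-41542176. Their germline sequences show where the runs of G in capitals can come from.
TRBD1: gggacagggggc
TRBD2: gggactgggggggc
In the TRBV12-2 junction all capitals are contained in TRBD1.

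Many different nucleotide sequences can stand behind a single member. TRBV12-2 TRBJ2-5 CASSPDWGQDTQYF had 30 nucleotide sequences, the most among members shorter than 15 residues, and the 8 with the most reads are shown because each encodes the same 14 residues.
1529 reads in 3 mice: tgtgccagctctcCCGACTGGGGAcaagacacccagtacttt
1287 reads in 4 mice: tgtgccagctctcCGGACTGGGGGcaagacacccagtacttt
572 reads in 4 mice: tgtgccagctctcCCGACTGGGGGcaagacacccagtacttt
367 reads in 2 mice: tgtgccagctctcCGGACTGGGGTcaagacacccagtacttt
305 reads in 4 mice: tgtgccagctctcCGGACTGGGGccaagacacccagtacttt
263 reads in 3 mice: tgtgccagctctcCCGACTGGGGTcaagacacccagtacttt
194 reads in 2 mice: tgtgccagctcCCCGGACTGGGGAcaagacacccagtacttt
181 reads in 1 mouse: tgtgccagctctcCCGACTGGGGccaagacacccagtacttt
TRBD2 was assigned to all 8, and they differ at the bases that flank the part it gave. Its mouse values were 0.0195% in mouse 5, 0.0206% in mouse 6, 0.0357% in mouse 7 and 0.0292% in mouse 8. Those are the values that chose the members, and its tumor means were further apart, at 0.00402, 0.0142, 0.0113 and 0.00100%.

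The CD8 libraries held 1016113 to 1663878 reads in dLN and 1243913 to 4840722 in tumor, so 1 read was between 2.07e-05% and 9.84e-05% of a library. Reads carried no molecular identifiers. A pair of dLN libraries from different animals, left 5 and right 8, shared many nucleotide clones: their Morisita-Horn index, which is 0 for separate and 1 for identical repertoires, was 0.579, whereas the 23 other pairs of dLN libraries from different mice lay between 0.00360 and 0.0372 and the left and right dLN of the same mouse between 0.0426 and 0.198. Without this pair, and with the members chosen anew, there were 3651 members, a count that fewer libraries lower as well. Whether clones passed between the libraries was not tested, and presence in mouse 5 or mouse 8 that rests on them is uncertain. Further values without the pair are given beside the results.

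The members were encoded by more nucleotide sequences than the other clonotypes. On average a member had 5.68 nucleotide sequences over all CD8 libraries (median 5, highest 35), against 3.24 for clonotypes of 3 mice, 2.06 for those of 2 mice and 1.05 for those of 1 mouse. A count over 4 mice has more chances to collect sequences than a count over 1 mouse, and within single mice the means were 2.15 for members and 1.05 for 1-mouse clonotypes. The member mean was 1.79 in mouse 5, 2.07 in mouse 6, 2.65 in mouse 7 and 2.07 in mouse 8. More than 1 nucleotide sequence was found for 98.3% of members, 534 members had 10 or more, and 88 had a single one. The highest counts belonged to a pair of 15-residue members of TRBV13-2 and TRBJ2-3 with 35 and 32 sequences, whose leading sequences were these.
35 sequences: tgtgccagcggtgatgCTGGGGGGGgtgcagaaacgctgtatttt
32 sequences: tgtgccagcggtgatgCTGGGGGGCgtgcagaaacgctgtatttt
Of the nucleotide sequence values of members, 0.502% lay 1 mismatch from a sequence of the same member at least 20 times more frequent in the library, and without them the mean was 5.63. Members with few reads in a library cannot meet this ratio, so the part of sequencing error in these counts was not measured.

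The nucleotide sequence that led a member usually differed between animals. The 4 mice had 4 different leading sequences for 1632 members (31.1%), 3 for 2041, 2 for 1237 and the same leading sequence for 338 (6.44%). Nevertheless, 1229 members (23.4%) had at least 1 nucleotide sequence present in all 4 mice, and for 479 (9.13%) no nucleotide sequence was shared by any pair of mice. Where sequences of the same member varied, 86.6% of the variable positions were at the third base of a codon, 11.0% at the first and 2.41% at the second. Most of them (93.8%) lay between the shortest V part and the shortest J part of the member. Sequences of a member encode the same residues by definition, and that stretch is the widest among them. Both results are therefore largely fixed in advance.

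Members had few bases added at their junctions. With an identified D segment, their nucleotide sequences carried 1.54 added bases on average, against 1.73 for clonotypes of 3 mice, 2.06 for 2 mice and 3.47 for 1 mouse. No base was added in 28.2% of the member sequences and in 7.28% of the 1-mouse sequences. The whole stretch between the V and J parts measured 8.42 bases in members and 10.7 in 1-mouse clonotypes. TRBD2 was assigned to 43.3% of member sequences and TRBD1 to 32.2%, whereas 1-mouse sequences had TRBD1 more often (44.3%) than TRBD2 (36.2%). No D segment was identified in 24.5% and 19.5%, respectively.

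**Figure D1:**
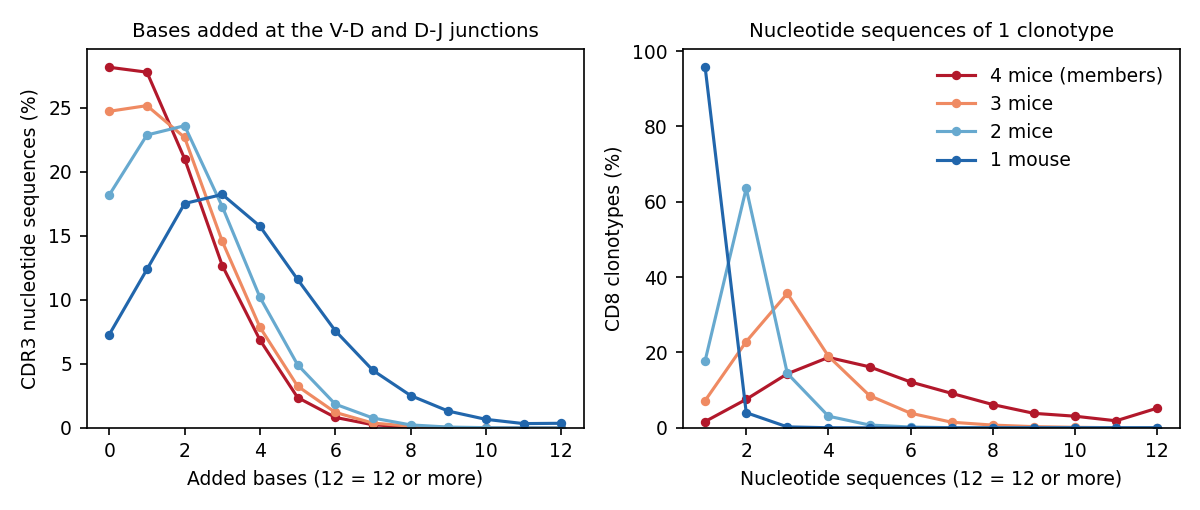
Added bases and nucleotide sequences per clonotype for CD8 clonotypes found in 4 mice (members), 3, 2 or 1 mouse, each as a share of sequences or clonotypes in percent. The member distribution is shifted to fewer added bases (mean 1.54 against 3.47 in 1-mouse clonotypes) and to more nucleotide sequences (mean 5.68 against 1.05).

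CDR3 regions of the members were short. Their mean length was 13.47 ± 1.28 residues (SD over 5248 clonotypes), compared with 13.62 in clonotypes of 3 mice, 13.80 in those of 2 mice and 14.18 ± 1.5 in those of 1 mouse. The 128 clonotypes past the limit averaged 13.49 residues. Members ranged from 8 to 17 residues, the 1-mouse clonotypes from 4 to 28. A length of 12 residues or fewer was found in 21.5% of members and 12.5% of 1-mouse clonotypes, and 16 residues or more in 3.45% and 17.1%, respectively. Read the other way, 2.27% of all CD8 clonotypes of 11 residues were members, 1.45% of those of 14 residues, 0.320% of those of 16 residues, and 4 of 15583 clonotypes of 17 residues. No clonotype of 18 or more residues was a member.

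**Figure D2:**
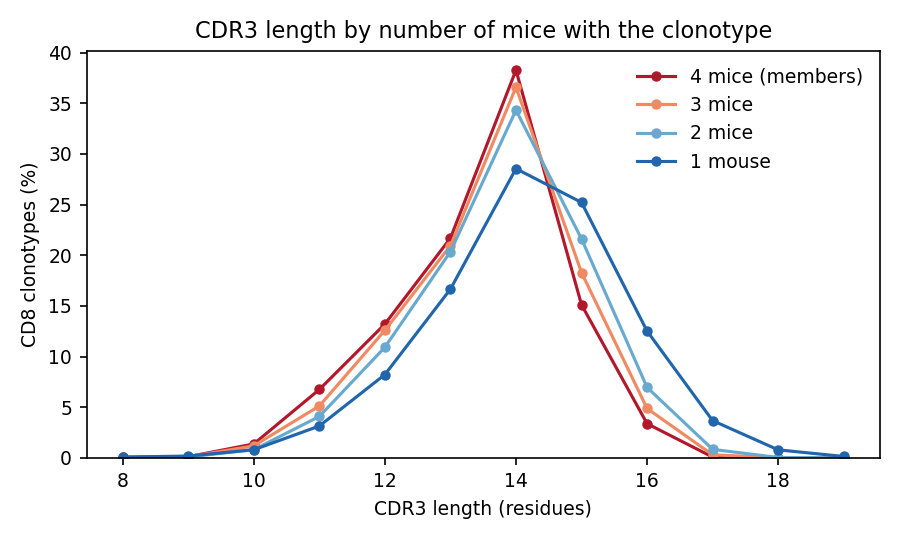
CDR3 length in residues against the percent of CD8 clonotypes of that length, for clonotypes found in 4 mice (members), 3, 2 or 1 mouse. All 4 curves peak at 14 residues, where members reach 38.3% and 1-mouse clonotypes 28.5%, and the member curve falls lowest above 15 residues.

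A few V segments held much of the list. TRBV12-2 was used by 16.6% of members and 8.17% of 1-mouse clonotypes, TRBV13-2 by 12.3% and 7.73%, and TRBV12-1 by 11.5% and 6.87%. Clonotypes of 3 and 2 mice were intermediate for TRBV12-2, at 13.3% and 10.6%. Other segments were rarer among members: TRBV17 was used by 2.0% of members and 4.16% of 1-mouse clonotypes, TRBV15 by 2.0% and 3.65%, TRBV31 by 0.781% and 2.26%, and TRBV2 by 0.495% and 2.08%. Of all CD8 clonotypes with TRBV12-2, 2.15% were members, and of those with TRBV2, 0.281%.

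The segments of the members lie along chromosome 6 in GRCm38. TRBV12-1 spans chr6:41113550-41114067, TRBV12-2 chr6:41118851-41119364 and TRBV13-2 chr6:41121396-41121832, all on the plus strand. TRBV12-1 and TRBV12-2 encode the same start of the CDR3, which is the first stretch below, while TRBV13-2 begins with another.
TRBV12-1 and TRBV12-2, germline: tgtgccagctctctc
TRBV13-2, germline: tgtgccagcggtgatg
Among the members, 273 pairs of J segment and CDR3 occurred with both TRBV12-1 (603 members) and TRBV12-2 (869 members). Telling these segments apart depended on the part of the V segment outside the CDR3. More widely, 2087 members (39.8%) had the same J segment and CDR3 as another member with a different V segment.

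Among J segments, TRBJ2-7 stood out. It was used by 29.2% of members and 19.6% of 1-mouse clonotypes, and it lies at chr6:41543810-41543856 with this germline contribution to the CDR3.
TRBJ2-7, germline: ctcctatgaacagtacttc
Clonotypes of 3 mice used TRBJ2-7 in 25.6%, and the 128 past the limit in 28.9%. Members used TRBJ2-2 (3.14% against 5.89%), TRBJ1-5 (0.800% against 3.07%) and TRBJ1-6 (1.70% against 3.45%) less than 1-mouse clonotypes did. The combination of TRBV12-2 with TRBJ2-7 made up 3.72% of members and 1.55% of 1-mouse clonotypes, TRBV12-1 with TRBJ2-7 3.64% and 1.40%, and TRBV13-2 with TRBJ2-7 3.58% and 1.49%. These feature values describe all members and carry no test, since the clonotypes all came from the same 4 mice.

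**Figure D3:**
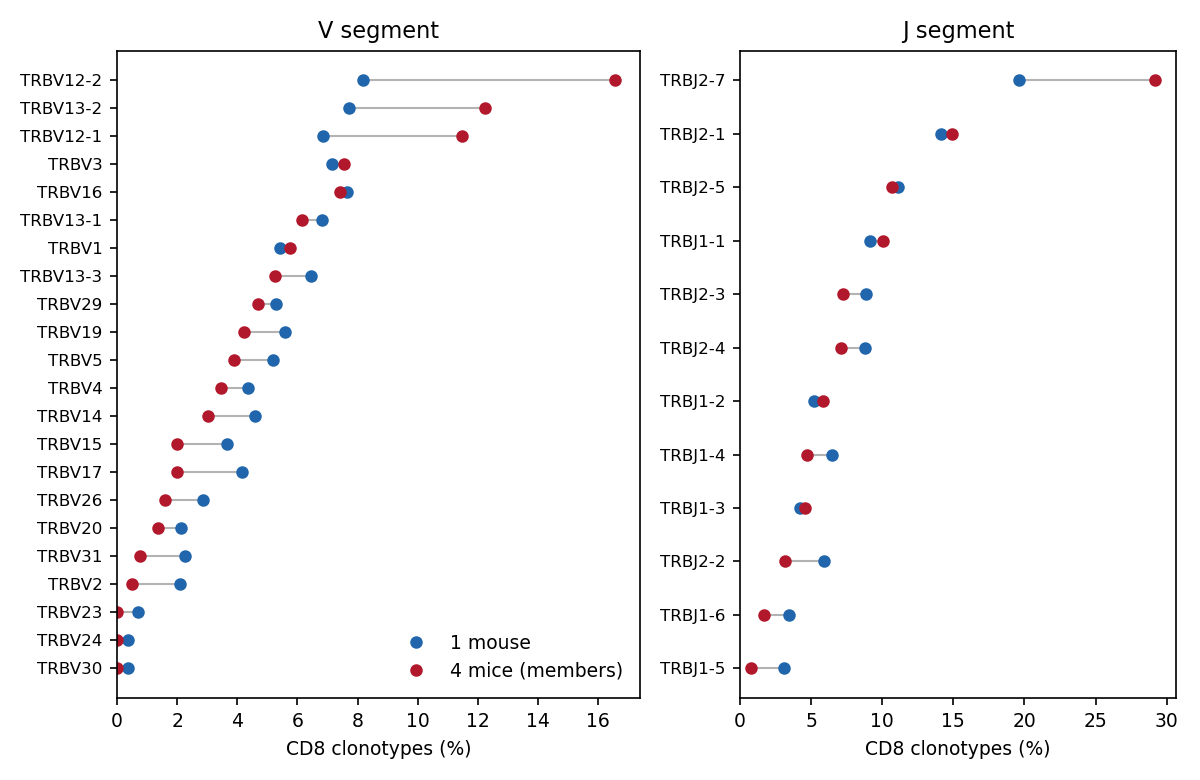
Use of V segments and of J segments, in percent of CD8 clonotypes, by members and by clonotypes of 1 mouse. TRBV12-2 (16.6% against 8.17%) and TRBJ2-7 (29.2% against 19.6%) show the widest gaps in favor of the members.

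Size and sharing moved together, and features were therefore compared at matched size. The median mouse value was 0.00304% for members, 0.00202% for clonotypes of 3 mice, 0.00154% for 2 mice and 0.000967% for 1 mouse, and a small clone is more easily missed in an animal. Among clonotypes with a mean mouse value from 0.001 to 0.01%, members had 13.48 residues, 1.55 added bases and, within a mouse, 2.08 nucleotide sequences, against 14.16, 3.39 and 1.06 for 1-mouse clonotypes. Clonotypes of 3 mice lay closer to members there, at 13.60, 1.70 and 1.43. From 0.01 to 0.1%, length and added bases were 13.23 and 1.40 for 3 mice, against 13.18 and 1.47 for members. Short junctions with few added bases were thus not particular to members at that size, while nucleotide sequences within a mouse were 1.82 and 5.07. From 0.01 to 0.1%, the members used TRBV12-2 in 23.7% and TRBJ2-7 in 36.0%, against 10.8% and 18.6% of 1-mouse clonotypes. From 0.0001 to 0.001% the TRBV12-2 gap was narrower, with 9.72% of members and 7.68% of 1-mouse clonotypes.

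Members also lay close to each other in sequence. Another member with the same V and J segment and a single residue changed existed for 78.6% of members. Such a member existed for 58.0% of clonotypes of 3 mice, 36.3% of 2 mice and 10.3% of 1 mouse, and for 53.9% of the 128 clonotypes past the limit. The member with the most neighbors, 19, was the 15-residue TRBV13-2 TRBJ2-3 receptor among the highest 5, itself encoded by 28 nucleotide sequences. TRBV13-2 TRBJ2-7 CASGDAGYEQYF had 17 such neighbors.

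Most members were small and were found in part of the libraries. A member was present in 8 of 24 CD8 libraries in the median (quartiles 6 and 11), 436 members were in exactly 4, and 6 were in all 24. Where present, a member had 30 reads and 0.00147% of the library in the median, and 1.08% of the 46093 values were a single read. A dLN library contained 2029 to 2836 members and a tumor library 833 to 2507. There were 541 members with reads in the dLN and the tumor of all 4 mice, 128 with none in any dLN and 88 with none in any tumor. The ratio of highest to lowest mouse value, which the rule capped, was 6.53 in the median, and 3471 members (66.1%) stayed under 10-fold.

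The 6 members in all 24 CD8 libraries had mouse values that differed less than 3-fold between animals, with 1 exception, although means within a tissue spread more widely. TRBV16 TRBJ2-7 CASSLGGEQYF had mouse values of 0.0201, 0.0207, 0.0225 and 0.0238% in mice 5 to 8, the narrowest of the 6. TRBV12-2 TRBJ1-3 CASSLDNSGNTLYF, TRBV13-2 TRBJ2-5 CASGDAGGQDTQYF, TRBV16 TRBJ2-7 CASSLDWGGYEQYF and TRBV12-2 TRBJ2-5 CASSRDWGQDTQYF differed by 1.36-, 1.68-, 1.79- and 2.86-fold between the highest and lowest mouse. In tumor, the means of TRBV16 TRBJ2-7 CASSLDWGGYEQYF ran from 0.000938 to 0.00661%, and in dLN those of TRBV12-2 TRBJ2-5 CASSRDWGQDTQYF ran from 0.00296 to 0.0139%. The exception was the TRBV20 member described next, at 21.9-fold. Next to the limit, TRBV16 TRBJ2-1 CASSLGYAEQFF and TRBV12-2 TRBJ2-7 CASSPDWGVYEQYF were inside at 99.4-fold each, and TRBV3 TRBJ2-7 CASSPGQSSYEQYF and a 15-residue TRBV13-2 TRBJ2-5 clonotype were just outside at slightly over 100-fold. Without the dLN pair that shared clones, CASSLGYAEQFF and the TRBV13-2 clonotype had no CD8 read in mouse 5. The mouse 5 value of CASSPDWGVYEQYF was then 0.00466% instead of 0.0195%, and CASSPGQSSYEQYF was unchanged.

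TRBV20 TRBJ1-2 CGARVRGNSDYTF was the highest member and the only one above 1% of a library. In the 4 tumor fragments of each animal it held 0.187 to 0.263% of reads in mouse 5, 1.86 to 2.16% in mouse 6, 0.283 to 0.470% in mouse 7 and 0.0683 to 0.0988% in mouse 8. In the dLN it held 0.00649 and 0.0230% in mouse 5, 0.0711 and 0.0890% in mouse 6, 0.0498 and 0.0382% in mouse 7, and 0.0366 and 0.0148% in mouse 8. Within every mouse all tumor fragments exceeded both lymph nodes, and mouse 6 was the highest in both tissues. The mean of the mouse means was 0.684% ± 0.931 in tumor and 0.0411% ± 0.0286 in dLN (SD, n = 4 mice). In the edgeR quasi-likelihood test described below, its log2 difference of tumor over dLN was 4.06 ± 4.20 (SE), with a Benjamini-Hochberg adjusted p of 0.649 (0.657 with the mouse as a block), so it was not called although tumor exceeded dLN in all 4 mice.

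The same TRBV20 receptor chain was built from different nucleotide sequences in different mice, which are shown with the mouse or mice that carried them.
mouse 6: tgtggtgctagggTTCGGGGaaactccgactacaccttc
mice 5, 6, 7 and 8: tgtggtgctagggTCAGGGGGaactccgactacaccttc
mouse 5: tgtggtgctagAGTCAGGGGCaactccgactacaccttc
mouse 8: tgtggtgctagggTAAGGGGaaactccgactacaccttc
In tumor, the sequence found only in mouse 6 gave 78.2% of that animal's reads of the member, the sequence of mouse 5 gave 93.2% there and the sequence of mouse 8 gave 99.9% there. The sequence found in all 4 mice gave all reads in mouse 7, 21.8% in the tumor of mouse 6, 6.76% in the tumor of mouse 5 and 0.106% (12 reads) in the tumor of mouse 8. In dLN its part was larger in mouse 5 (89.8%) and mouse 6 (63.9%) than in their tumors. A further sequence of mouse 5 had 10 reads.

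The next 9 members by mean mouse value fell into those led by 1 animal or 1 pair of libraries and those spread more evenly. TRBV12-2 TRBJ2-7 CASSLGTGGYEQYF reached 0.230% in mouse 5, where its 4 tumor fragments held 0.143 to 0.230%, and stayed at 0.0102, 0.0199 and 0.0234% in mice 6, 7 and 8. TRBV3 TRBJ2-7 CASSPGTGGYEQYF reached 0.210% in a single tumor fragment of mouse 7, and no other CD8 library exceeded 0.0155%. TRBV13-2 TRBJ2-3 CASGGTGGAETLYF held 0.0301 to 0.110% in the tumor fragments of mouse 8 and at most 0.00962% in any other mouse. TRBV17 TRBJ1-1 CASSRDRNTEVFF reached 0.102% in 1 tumor fragment of mouse 7 and at most 0.00366% in any other mouse. TRBV4 TRBJ1-1 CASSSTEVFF was higher in mice 5 and 6 (0.0554 and 0.0519%) than in mice 7 and 8 (0.00346 and 0.00409%).

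A pair of these members owed its rank to the dLN libraries that shared clones. TRBV13-2 TRBJ1-1 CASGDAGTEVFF held 0.0573% of left dLN 5 and 0.158% of right dLN 8, and at most 0.0102% of any other CD8 library. TRBV15 TRBJ2-7 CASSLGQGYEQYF held 0.0546% and 0.141% of the same libraries, and at most 0.00781% of any other CD8 library. Without those libraries their mean mouse values were 0.00488% and 0.00369% instead of 0.0575% and 0.0514%.

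The remaining members of the highest 10 were present in all 8 dLN libraries. The 15-residue TRBV13-2 TRBJ2-3 member held between 0.0323 and 0.0653% of the 8 dLN libraries and between 0 and 0.0122% of the 16 tumor libraries, so the tissues did not overlap in any library. Its means were 0.0491% ± 0.00977 in dLN and 0.00453% ± 0.00198 in tumor (SD, n = 4 mice). In the edgeR test it was not called, with a log2 difference of -3.49 (adjusted p = 0.553) beside a median of -2.29 over all tested clonotypes. The 14-residue TRBV1 TRBJ1-1 member held 0.0126 to 0.0526% of the dLN libraries and 0 to 0.0206% of the tumor libraries, which overlapped, with means of 0.0326% ± 0.0100 and 0.00349% ± 0.00351.

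**Figure D4:**
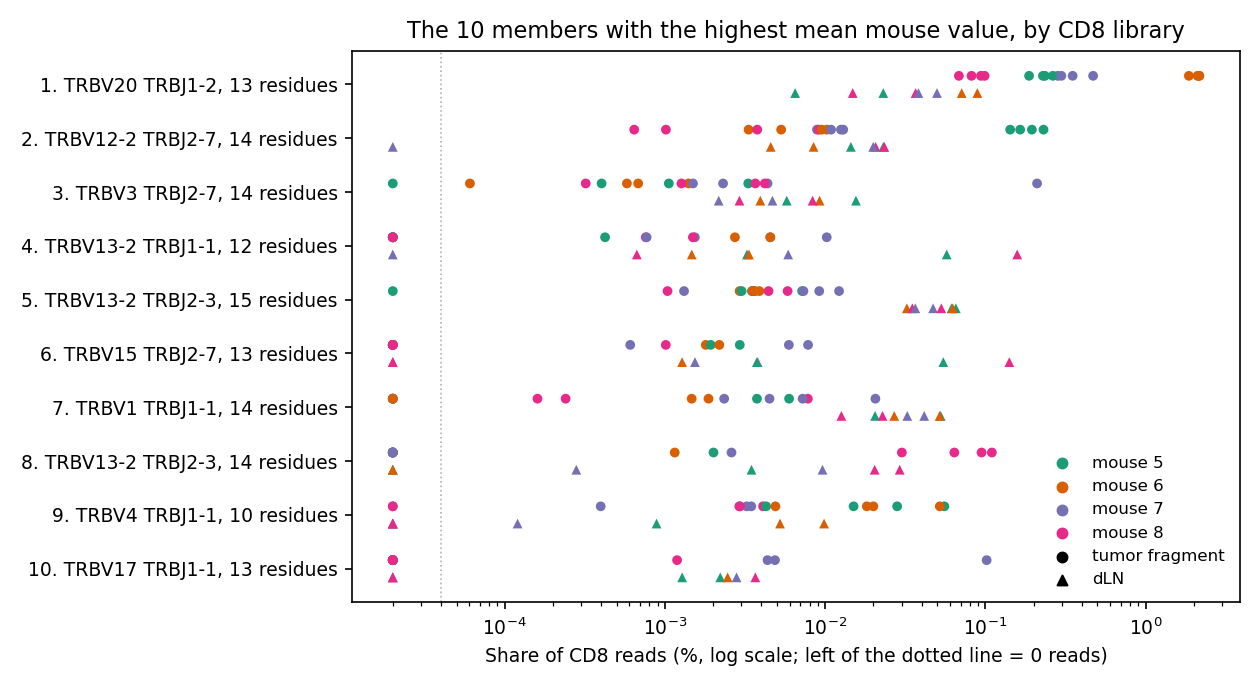
Share of CD8 reads (percent, log scale) of the 10 members with the highest mean mouse value in each of 24 libraries, with circles for tumor fragments, triangles for dLN and a color for each mouse; points left of the dotted line are 0 reads. The TRBV20 member is higher in all tumor fragments than in both dLN of the same mouse (up to 2.16% in mouse 6), whereas the 15-residue TRBV13-2 TRBJ2-3 member is higher in all dLN than in any tumor.

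Whether shared receptors could be predicted in an animal that took no part in choosing them was examined by building the list from 3 mice with the same 100-fold limit. Such lists held 6803 to 9504 clonotypes, and 55.6% of the list was found in mouse 5, 64.2% in mouse 6, 77.9% in mouse 7 and 64.1% in mouse 8, each time with that mouse left out (mean 65.4% ± 9.21, SD, n = 4 mice). Of clonotypes found in 2 of the other 3 mice, 31.6% ± 7.85 were found in the mouse left out, and of those found in 1 of the other 3, 6.13% ± 1.98. Without the dLN pair that shared clones, 64.0% of the lists were found on average. The lists share mice with each other, and no test was made between them.

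Nucleotide clones of members were also found in the other side of the body and in other animals. The overlap of the left and right sides was taken as the shared clones in percent of the geometric mean of the clone numbers of both sides. For member clones in tumor it was 27.1% (20.9 to 34.6% in 4 mice) within a mouse and 16.4% (13.2 to 20.2%) between the left tumor of one mouse and the right tumor of another. For other clonotypes the same values were 12.8% and 1.00%. In dLN they were 19.7% and 16.4% for members, and 4.76% and 1.12% for other clonotypes, the latter including 2.35% for the pair that shared clones. Sharing of nucleotide clones across mice is favored by the choice of the members, so these values carry no test.

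The share of reads held by the members was compared between tumor and dLN, and the result depended on whether the rule had a limit between mice. Members held 2.63, 4.08, 4.25 and 2.11% of CD8 tumor reads in mice 5 to 8 and 11.0, 10.4, 9.61 and 10.0% of CD8 dLN reads. Tumors were below dLN in all 4 mice without overlap, with means of 3.27% ± 1.06 and 10.3% ± 0.590 (SD, n = 4 mice). The limit was set on these same CD8 shares, so the difference is given as a description with no test. With a limit of 10-fold the means were 1.76% and 7.25%, and with 1000-fold 4.92% and 10.8%, which are no independent support. A limit removes clonotypes that were far larger in 1 mouse than in another: with all 128 clonotypes past 100-fold included, the shares were 27.9, 13.9, 5.60 and 9.18% in tumor and 12.6, 10.9, 9.85 and 13.1% in dLN, with means of 14.1% ± 9.76 and 11.6% ± 1.52. Presence in these same libraries chose that list as well, so no test is given for it. With the list taken from the other 3 mice, the means were 10.2% ± 9.67 in tumor and 10.4% ± 0.662 in dLN (exact permutation p = 0.943).

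Large clonotypes made up most tumor reads and moved with this result. Clonotypes above 0.1% of a library held 73.5% ± 10.1 of tumor reads and 1.31% ± 1.49 of dLN reads, and 7 members were ever among them. When these clonotypes were left out of each library's total, members held 9.62% ± 0.473 of tumor reads and 10.4% ± 0.627 of dLN reads (SD, n = 4 mice). Tumor was still lower in each mouse, at 10.2 against 11.1, 9.32 against 10.5, 9.18 against 9.63 and 9.77 against 10.2% in mice 5 to 8. Counted as clonotypes, each once, members were 7.57% ± 1.47 of tumor and 6.98% ± 0.788 of dLN clonotypes. With the reads of each mouse pooled the direction turned, to 5.26% and 5.58%, and presence in these libraries chose the members, so no test is given. Without left dLN 5 and right dLN 8, and with the members chosen anew, the shares of reads were 2.89% in tumor and 8.30% in dLN.

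**Figure D5:**
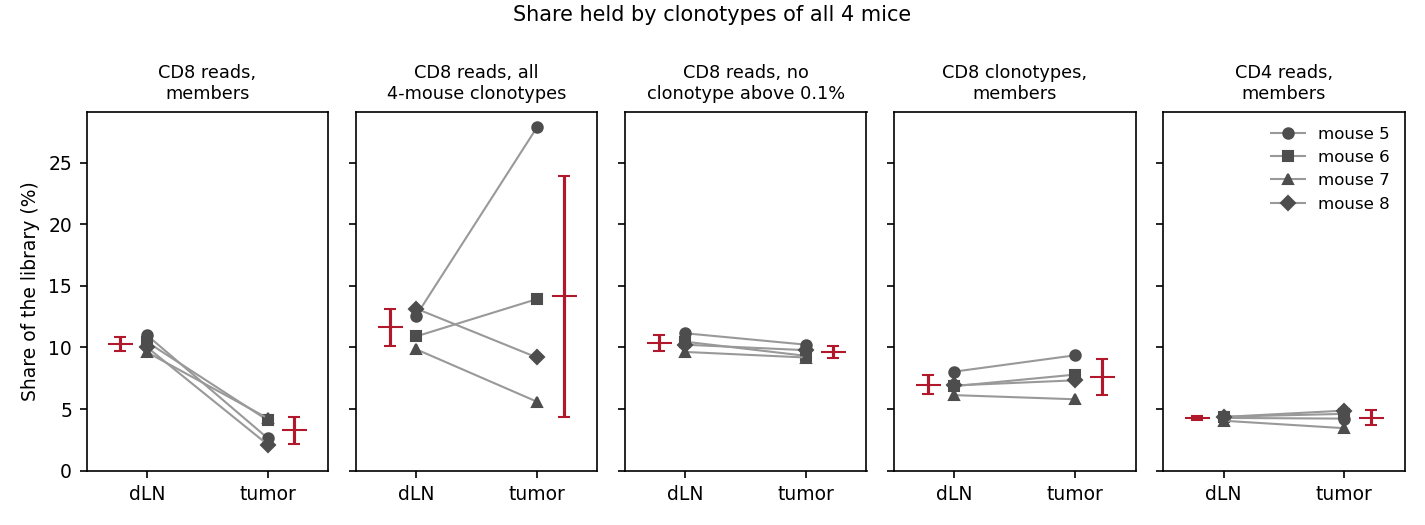
Percent of reads held by the members per mouse in tumor and dLN, for CD8 under the rule, for CD8 under the alternatives named in the panels, and for CD4. The CD8 tumor values (2.11 to 4.25%) lie below the dLN values (9.61 to 11.0%) under the rule, whereas the means are 14.1% and 11.6% without the limit.

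Single clonotypes were tested with edgeR's quasi-likelihood method on reads summed per mouse and tissue. With at least 10 reads in 4 of the 8 sums, 7961 clonotypes were tested, of which 4397 were members, and the remaining members had too few reads. At an adjusted p under 0.05, 6 clonotypes were lower in tumor (0.0754% of those tested) and 0 were higher (0%). At an unadjusted p under 0.05, 697 were lower (8.76%, against 11.8% of members) and 90 higher (1.13%, against 1.48% of members). All 6 were members, but without tumor reads a clonotype reaches the minimum only if the dLN of all 4 mice hold it, so nothing is read from that. The median log2 difference of tumor over dLN was -2.29 over all tested clonotypes and -2.28 over members, and with trimmed-mean (TMM) scaling both were within 0.02 of 0. The calls changed with the settings: 0 clonotypes were lower and 2 higher with TMM, 0 were called with the mouse as a block or with any mouse left out, and DESeq2 called 44 lower and 59 higher. In DESeq2 the 6 remained called, with adjusted p from 0.00423 to 0.00694, and with TMM their log2 differences were -10.16 to -8.30 without a call.

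The 6 members called lower had 0 or 1 read in all tumor libraries together, so they reached the read minimum only through the dLN of all 4 mice. That minimum fixes their presence in every dLN and favors their direction, and their values are given as a description. A 16-residue member of TRBV14 and TRBJ2-3 had 27, 96, 68 and 452 dLN reads in mice 5 to 8 (0.00114, 0.00428, 0.00220 and 0.0152%) and 0 reads in the 16 tumor libraries. By reads it was at least 903-fold lower in tumor, taking 3 reads over all tumor libraries as the floor (edgeR log2 difference -11.63 ± 2.40 SE), and without mouse 8 this bound was 265-fold. This bound, and the bounds and interval below, count reads as separate draws. Reads carried no molecular identifiers, and a member had 30 reads in the median where present. They are therefore not bounds on numbers of cells. TRBV14 TRBJ2-7 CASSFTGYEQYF had 21, 159, 45 and 225 dLN reads, no tumor read, and was at least 632-fold lower, a bound of 365-fold without mouse 6 and 312-fold without mouse 8. TRBV3 TRBJ2-5 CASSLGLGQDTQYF had 162, 82, 69 and 100 dLN reads, no tumor read, and was at least 580-fold lower. Their leading sequences show the junctions behind these calls.
TRBV14 TRBJ2-3, 16 residues: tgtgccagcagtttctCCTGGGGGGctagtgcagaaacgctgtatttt
TRBV14 TRBJ2-7 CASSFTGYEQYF: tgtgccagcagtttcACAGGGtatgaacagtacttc
TRBV3 TRBJ2-5 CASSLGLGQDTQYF: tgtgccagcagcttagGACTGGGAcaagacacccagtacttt
The other called members were TRBV14 TRBJ2-4 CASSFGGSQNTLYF and TRBV12-1 TRBJ2-3 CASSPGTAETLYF, without tumor reads and at least 588- and 560-fold lower (370- and 294-fold without mouse 8), and a 15-residue TRBV13-3 TRBJ2-4 member with 500 dLN reads and 1 tumor read, a ratio of 2106 with a counting interval from 376 to 83339.

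Without a model, 918 of the tested clonotypes (11.5%) held a smaller percent of reads in every tumor than in every dLN of the 4 mice, and 73 (0.917%) a larger one. Of the member tests these were 20.9% and 1.64%. A clonotype lower in each tumor than in each dLN must be present in the dLN of all 4 mice, so the rule itself places the first group among clonotypes of 4 mice and the shares are not compared. The TRBV20 member was among those higher in every tumor.

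Members were met among CD4+ T cells of the same animal more often than other CD8 clonotypes. In mice 5 to 8, 16.8, 23.4, 24.7 and 22.9% of the members were found in a CD4 library of the mouse, a mean of 22% ± 3.5 (SD, n = 4 mice). Clonotypes of 3 mice reached 12.4% ± 2.39 and clonotypes of 1 mouse 1.71% ± 0.379. Members were above both in all 4 mice (exact two-sided permutation p = 0.0286 for each, the smallest that 70 splits allow, and 0.125 when paired by mouse, the smallest that 16 sign changes allow). Clone size was not matched here: the median mouse value was 0.00304% for members, 0.00202% for 3 mice and 0.000967% for 1 mouse. Members also had more nucleotide sequences and are the same clonotypes in every mouse. Whether size or sequence number accounts for the difference was not tested. For the CD4 libraries of the other mice the member means were 23.7, 21.5, 21.04 and 21.6%. Every member is in all 4 mice by rule, so these means only average the values above and are no separate observation. Without the dLN pair that shared clones, members exceeded 1-mouse clonotypes by 21.3 percentage points, against 20.2 with it. Over all mice, 2571 members (49.0%) occurred in some CD4 library, against 7.34% of all CD8 clonotypes and 4.88% of those of 1 mouse. Conversely, 2677 members occurred in none, and 188 occurred in the CD4 libraries of all 4 mice.

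In CD4 libraries the shares of the members in both tissues differed by less than the spread between mice, at 4.29% ± 0.622 of reads in tumor and 4.27% ± 0.150 in dLN (SD, n = 4 mice; exact permutation p = 1). The log2 ratio of tumor over dLN was -1.71 in CD8 and -0.00410 in CD4, with CD8 below CD4 in all 4 mice. The rule capped CD8 and not CD4 frequencies, so this contrast is a description and no test is given. As CD4 clonotypes, members were 3.63% in tumor and 3.36% in dLN, higher in tumor in all 4 mice (exact permutation p = 0.0286, 0.125 when paired by mouse). CD4 tumor libraries held 7879 clonotypes on average and CD4 dLN libraries 15021. Whether this difference remains with pooled reads or equal depth was not tested.

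Some members took a larger share of CD4 than of CD8 reads. Of the 5248, 774 (14.7%) had a higher mean share in CD4 than in CD8 libraries, 89 of them by more than 10-fold. TRBV1 TRBJ2-4 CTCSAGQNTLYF held 0.0847 to 1.04% of all 24 CD4 libraries (mean 0.414%) and 0.00190% of the CD8 libraries on average. TRBV26 TRBJ2-7 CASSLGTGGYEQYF was also in all 24 CD4 libraries, with a mean of 0.134% against 0.00231% in CD8, and TRBV1 TRBJ2-4 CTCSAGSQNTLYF was in 20, with 0.119% against 0.00210%. Without the dLN pair that shared clones, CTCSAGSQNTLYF had no CD8 read in mouse 5. TRBV26 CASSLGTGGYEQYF has the same CDR3 and J segment as the second highest CD8 member, which uses TRBV12-2. The 10 highest CD8 members were found in 0 to 11 CD4 libraries. Among them, TRBV13-2 TRBJ1-1 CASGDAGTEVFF had a higher mean in CD4 (0.0300%) than in CD8 libraries (0.0107%). Its highest CD4 value was 0.212%, in a tumor library. Whether CD4+ cells in the CD8 sort contributed to these reads was not tested.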

How the data were processed

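TCRβ repertoires were measured in 48 libraries of sorted CD8+ and CD4+ T cells from 4 mice. cDNA was made by template switching and amplified by nested PCR without molecular identifiers. The authors trimmed reads with Cutadapt 3.2 among other tools, aligned them to TCR segments and deposited, for each library, the read count of every CDR3 nucleotide clone, its fraction of the library's reads, its V, D and J segments and the positions of the segment ends within the CDR3. The deposited counts were not drawn to an equal depth. Columns of per-sample values without a map to a sample numbered 0.

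Clones were merged by V, J and CDR3 amino acids, and fractions were summed and given as percent. A clonotype's mouse value was its highest share over the 6 CD8 libraries of a mouse. Per tissue, library percents were averaged within each mouse, and the 4 mice were the replicates. Added bases were those between the V and D and the D and J ends. Intervals and floors cover counting error of reads only, not of cells. The members and lists were chosen with earlier results of these data known. The members named in the text were, by rule, the 10 with the highest mean mouse value, the 3 with the most nucleotide sequences, the 3 highest in CD4 libraries, the 2 on each side of the limit and, among those past the edgeR threshold and changed alike in all 4 mice, the 3 with the largest rise and the 3 with the largest fall. The members in all 24 CD8 libraries and further called or neighbor-rich members were named after their values were seen.

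Single comparisons used exact two-sided permutation tests (scipy 1.17.1, Python 3.11.15, pandas 2.3.3, numpy 2.4.6). Clonotype counts summed per mouse and tissue were tested with edgeR 4.0.16 (R 4.3.3, quasi-likelihood, library totals, at least 10 reads in 4 of 8 sums, Benjamini-Hochberg threshold 0.05), with DESeq2 1.42.0 as an alternative. Tested on simulated data for this comparison, 91 of 97 4-fold and 98 of 98 16-fold changes were found at a dispersion of 0.1, but 0 of 40 and 0 of 33 at the dispersion of these counts, 4.13. Tumor and dLN values of the same number come from the same animal, so the numbers pair them. Their deviations from the tissue means correlated at 0.0596, 0.128, 0.117 and 0.109 in mice 5 to 8 over the 541 members found in every mouse and tissue. Alternatives covered the definition of a clonotype, read minimums, the limit, large clonotypes, scaling, filters, draws to 6 reads per sorted cell and to the smallest CD8 library, the pairing, each mouse left out and, added after the data were seen, the dLN pair, CD4 overlap, lists from 3 mice and clone size.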

Additional observations from a re-analysis of the deposited data

Results flagged for a closer look

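Of 38 groups of 4 to 10 values examined, 7 held a value far from the others, where chance alone gives about 1 in 20 groups. That rate is no measure for the 6 members among them, which were named for a high mean mouse value and so tend to have 1 extreme value. Mouse values stood apart for TRBV12-2 TRBJ2-7 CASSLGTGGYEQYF (0.230% in mouse 5, the next 0.0234%), TRBV3 TRBJ2-7 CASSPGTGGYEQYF (0.210% in mouse 7, the next 0.0155%), TRBV13-2 TRBJ2-3 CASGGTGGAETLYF (0.110% in mouse 8, the next 0.00962%) and TRBV17 TRBJ1-1 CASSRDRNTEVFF (0.102% in mouse 7, the next 0.00366%). Among the 8 CD8 dLN libraries, right dLN 8 stood apart for TRBV13-2 TRBJ1-1 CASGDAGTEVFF (0.158%, the next 0.0573% in left dLN 5) and for TRBV15 TRBJ2-7 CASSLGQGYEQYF (0.141%, the next 0.0546% in left dLN 5). In 1 CD4 dLN library the members were 3.04% of clonotypes, the next lowest being 3.29%.

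The share of reads held by the members changed differently between tissues in CD8 and CD4: the log2 ratio of tumor over dLN was lower in CD8 by a difference of -1.71, in all 4 mice. The rule capped CD8 and not CD4 frequencies, and without a limit the CD8 tumor share was above that of dLN on average, so this is a description.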

How the results depend on the processing

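The number of members was 1384 with clonotypes defined by nucleotides, 3471 with a limit of 10-fold and 6803 to 9504 when each mouse was left out and the rule run over 3 mice. The share of CD8 reads in tumor minus dLN (-7.0 percentage points) was 2.52 without the limit, -0.742 without clonotypes above 0.1%, -0.221 with lists from the other 3 mice, and -7.54 to -6.54 when each mouse was left out. The replicate block was a sign-change test on differences paired by mouse, which keeps the mean difference by construction. The values were -7.0 for this share (tumor minus dLN) and 20.2 percentage points for presence in CD4 (members minus 1-mouse clonotypes). For presence in CD4 the exact sign-change p was 0.125. The share of CD8 clonotypes, 0.586 points higher in tumor, reversed to -0.318 when the reads of a mouse were pooled.

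Feature gaps between members and 1-mouse clonotypes kept their direction: CDR3 residues, TRBV12-2 percent, TRBJ2-7 percent, added bases and nucleotide sequences were -0.704, 8.39, 9.60, -1.93 and 4.63. Weighted by reads they were -0.578, 12.2, 11.3, -2.42 and 6.54. Without the dLN pair the residues, TRBV12-2, TRBJ2-7 and sequences were -0.674, 10.2, 10.9 and 4.77. From 0.0001 to 0.001% the 5 gaps were -0.603, 2.04, 5.30, -2.02 and 2.63, from 0.01 to 0.1% they were -0.852, 12.9, 17.4, -1.75 and 10.3, and from 0.001 to 0.01% TRBJ2-7, added bases and sequences were 9.98, -1.84 and 4.51.

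In place of 6 lower and 0 higher clonotypes in tumor, TMM gave 0 and 2, DESeq2 44 and 59, a minimum of 1 read 0 lower, no filter 0 lower, the replicate block 0 lower, 6 reads per cell 10 lower, the libraries without the dLN pair 3 lower and 1 higher (TRBV26 TRBJ1-2 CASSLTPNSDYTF, no member), and leaving out any mouse 0 lower. The 2 higher with TMM were TRBV12-2 TRBJ2-7 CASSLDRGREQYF and a 16-residue member of TRBV12-2 and TRBJ2-2. The causes were not tested. Read totals limit a single clonotype: 1 read was up to 9.84e-05% of a CD8 library.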
